A study of Mus musculus with 2 samples.

Results

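The cells described here are S-phase progenitors low in Dlx, that is, mouse neural cells that carried UMIs of DNA replication genes but few of mitotic, interneuron or oligodendrocyte genes. They numbered 247 of the 13278 cells kept for analysis and of the 14685 cell barcodes in the data. A cell was kept with at least 500 detected genes and at most 10% of its unique molecular identifiers (UMIs, counted transcript molecules) from mitochondrial genes. The 247 cells were chosen by raw UMI sums. The S sum of a chosen cell (Mcm2, Mcm3, Mcm5, Mcm6, Hells and Rrm2) was at least 4, its mitotic sum (Ube2c, Cenpf, Ccnb1 and Top2a) at most 1 and its Dlx sum (Dlx1, Dlx2, Dlx5, Dlx6os1, Dcx and Gad2) at most 1, with an oligodendrocyte sum (Sox10, Gpr17, Pdgfra and Bcas1) of 0. The S condition alone left 2162 cells, the mitotic condition 560 of these, the Dlx condition 282 and the oligodendrocyte condition 247. Because measured UMIs chose the cells, all levels of these cells against other cells are given as description, with no test.

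During S phase a cell copies its genome. Licensing factors load the MCM helicase on origins in G1, the forks then run on PCNA-clamped polymerases fed by nucleotide synthesis, and checkpoint proteins slow the forks when they stall. In the subventricular zone, activated neural stem cells and transit-amplifying cells divide, marked by Egfr, and their progeny take up Dlx genes as they become neuroblasts bound for the olfactory bulb.

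The study grew neural stem cells from the subventricular zone of C57/Bl6J mice and profiled them by droplet sequencing of transcript 3′ ends (10x Genomics, kit version 1). Its 20HC_treated library came from cells given the oxysterol 20HC at 1 µM for 3 days after EGF and FGF withdrawal, and its control library from cells given vehicle for the same time, with 1 library per condition. The treatment text in the label of the control library also names 20HC, so the condition was taken from the titles. The labels do not say how many animals or cultures each library pools, and they tie no barcode to a library. Barcodes end in 1 or 2, and these are called barcode set 1 and barcode set 2 with no condition attached. The 20HC treatment could therefore not be compared with control, and the pooled matrix counts as 1 sample.

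Set 1 held 194 of the S-phase low-Dlx cells among 9869 kept cells, a share of 1.97% (exact Clopper-Pearson 95% interval 1.70% to 2.26%). Set 2 held 53 among 3409, a share of 1.55% (1.17% to 2.03%). The pooled share was 1.86% (1.64% to 2.105%). The intervals of the sets overlapped. Depth per S-phase low-Dlx cell ranged from 833 to 5614 UMIs with a median of 2679, against a median of 2866 in the other 13031 kept cells. The 247 cells held 676881 UMIs in all, so 1 UMI of a gene stands for about 1.48 CPM (UMIs scaled to a total of 1000000), and a gene with no UMI could have been present at up to 4.43 CPM, the level that 3 UMIs would give. The median mitochondrial share was 2.22%. Of the cell barcodes, 48 sequences occurred in both sets, none of them (0) among the S-phase low-Dlx cells. Scrublet, a doublet caller, marked 12 of 194 S-phase low-Dlx cells in set 1 and 0 of 53 in set 2. It marked 239 of all 9869 kept cells in set 1 (2.42%, where 7.90% were expected from the cell number). The share marked in set 1 was thus larger among the S-phase low-Dlx cells than among all kept cells. In set 2 it marked 11 of 3409 kept cells (0.323%, where 2.73% were expected). Over all kept cells its calls lay below the expected rate in both sets, and those in set 2 carry little weight.

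**Figure D1:**
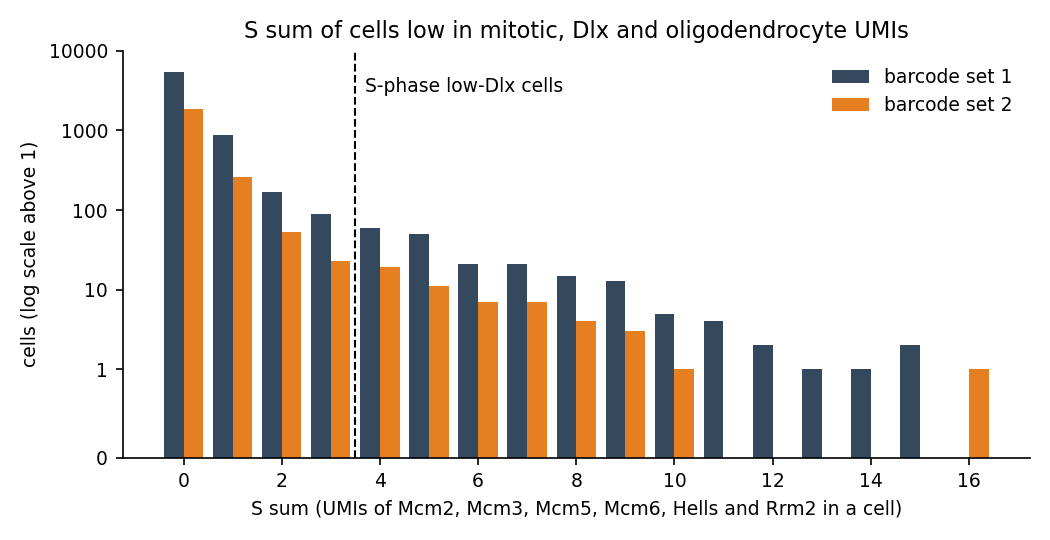
Number of cells (vertical axis, logarithmic above 1) by S sum in UMIs (horizontal axis) among kept cells that met the mitotic, Dlx and oligodendrocyte conditions, by barcode set. Right of the dashed line lie the 247 S-phase low-Dlx cells, whose median S sum was 5 and highest 16; counts decline without a gap across the line, from 111 cells at an S sum of 3 to 78 at 4.

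A further 3 groups of kept cells served for comparison: G2 and M low-Dlx cells (953 cells, mitotic sum at least 4, same Dlx and oligodendrocyte conditions, median 3324 UMIs), S-phase Dlx-high cells (108 cells, same S and mitotic conditions, Dlx sum at least 4, median 2566 UMIs) and few-cycle low-Dlx cells (8456 cells, S and mitotic sums at most 1, low Dlx, median 2800.5 UMIs). All 3 groups were also held to an oligodendrocyte sum of 0, so oligodendrocyte genes are compared among cells chosen to lack 4 of them. Levels are UMIs of a gene summed over a group scaled to a group total of 1000000 (CPM), with exact Poisson 95% intervals in brackets that cover counting error only. A gene was measured with at least 30 UMIs in both groups of a comparison together. It was called higher or lower on a CPM ratio of 1.5 or more whose sign was shared by sets 1 and 2, provided that the CPM of the comparison group lay outside the Poisson interval of the S-phase low-Dlx cells. Log2 ratios were taken after adding 5 CPM and put the S-phase low-Dlx cells on top. Genes of the rule are left out of the counts over all genes.

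The promoters of the markers of these cells were searched for the binding motif of E2F factors, the transcription factors that switch on genes at the start of S phase. Searched were the 8-base words TTTCCCGC, TTTCGCGC, TTTGCCGC and TTTGGCGC on both strands, in windows from 250 bases before to 50 bases after each gene's start (RefSeq sequences, build GRCm38.p6). A word was found in 5 of 5 promoters of the markers Mcm3, Mcm6, Hells, Clspn and Dtl, and in 30 of the 103 promoters available for the 131 genes of the 6 replication lists described below (29.1%), against 626 of all 27025 promoters (2.32%). Of the 6 S genes of the rule 4 held a word, of 17 nucleotide synthesis promoters 1, and the Ung promoter, that of a repair gene described below, held 0. Promoters of 3 markers are printed 5′ to 3′ on the strand of the gene, because they differ in how many words they hold, with the words in capitals. Mcm6, a subunit of the MCM helicase, lies on the minus strand (window chr1:128359656-128359955) and holds 3 words, a pair of which overlap in 1 run of capitals. Clspn (claspin, a checkpoint adaptor at the fork; plus strand, chr4:126556730-126557029) and Dtl (the CDT2 subunit of the ubiquitin ligase that degrades CDT1 in S phase; minus strand, chr1:191575495-191575794) hold 1 word each.
Mcm6 promoter: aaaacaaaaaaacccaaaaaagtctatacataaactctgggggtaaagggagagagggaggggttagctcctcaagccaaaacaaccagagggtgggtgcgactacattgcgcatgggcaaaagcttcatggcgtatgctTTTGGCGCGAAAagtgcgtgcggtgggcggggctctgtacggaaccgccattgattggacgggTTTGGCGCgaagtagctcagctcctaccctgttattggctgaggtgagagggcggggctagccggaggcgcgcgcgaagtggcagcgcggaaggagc
Clspn promoter: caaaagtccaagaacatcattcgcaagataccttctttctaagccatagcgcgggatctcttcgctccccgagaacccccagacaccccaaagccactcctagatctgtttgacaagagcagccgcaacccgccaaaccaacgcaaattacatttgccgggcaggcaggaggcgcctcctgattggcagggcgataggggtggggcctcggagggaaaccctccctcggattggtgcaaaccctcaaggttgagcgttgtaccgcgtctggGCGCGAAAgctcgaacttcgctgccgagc
Dtl promoter: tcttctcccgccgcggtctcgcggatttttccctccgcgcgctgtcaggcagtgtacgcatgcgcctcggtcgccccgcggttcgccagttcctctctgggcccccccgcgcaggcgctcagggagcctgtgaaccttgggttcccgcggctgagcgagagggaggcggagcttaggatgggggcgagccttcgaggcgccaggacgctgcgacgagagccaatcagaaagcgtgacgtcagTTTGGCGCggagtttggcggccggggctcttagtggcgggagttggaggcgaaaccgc
The Clspn word is the reverse complement of TTTCGCGC. A match describes these letters in this window and is no evidence of binding. Among measured genes called higher in the S-phase low-Dlx cells than in few-cycle low-Dlx cells, 118 of 1267 promoters held a word (9.31%), against 52 of 1929 among genes called lower (2.70%) and 4.26% of all measured genes. Against G2 and M low-Dlx cells the shares were 6.79% of genes called higher, 4.99% of genes called lower and 4.94% of measured genes. Against S-phase Dlx-high cells they were 5.48%, 5.31% and 5.42% in the same order, and so close to each other. None of the 16 promoters available for astrocyte genes (0) and none of the 13 for neuroblast genes (0) held one.

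The levels of the 5 markers of the label come first, 3 of which (Mcm3, Mcm6 and Hells) belong to the rule. Clspn (Ensembl ENSMUSG00000042489, chromosome 4, 126556935 to 126593903, GRCm38) stood at 199 CPM (167 to 236) in the S-phase low-Dlx cells, against 3.81 CPM in few-cycle low-Dlx cells. By barcode set it reached 191 CPM in set 1 and 228 CPM in set 2 of the S-phase low-Dlx cells, against 3.64 CPM and 4.27 CPM in the same sets of few-cycle low-Dlx cells. The sets thus differed little beside the gap between the groups. Dtl (ENSMUSG00000037474, chromosome 1, 191537356 to 191575544) stood at 169.9 CPM (140.3 to 204) in the S-phase low-Dlx cells, against 6.997 CPM in few-cycle low-Dlx cells. Mcm3, Mcm6 and Hells, which chose the cells, stood at 332, 341 and 383 CPM in the S-phase low-Dlx cells, against 6.17, 9.48 and 6.25 CPM in few-cycle low-Dlx cells. All 5 markers were present at levels close to those of S-phase Dlx-high cells, where Clspn had 216 CPM and Dtl 182 CPM. Both comparison groups were themselves chosen by their S sums, so these levels describe the label and do not test it. Against G2 and M low-Dlx cells, 4 of the 5 markers were called higher and Clspn was in neither class. The word progenitor is a label only: the rule asks for no progenitor gene, and the levels of such genes are given below. Clspn was seen in 40.5% of S-phase low-Dlx cells (34.3% to 46.9%), against 1.06% of few-cycle low-Dlx cells and 10.1% of 188 collagen-rich cells, a background group of median 4447.5 UMIs. With every cell thinned to 1500 UMIs, which left out 15 S-phase low-Dlx cells, these shares were 25%, 0.486% and 2.17%.

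Against few-cycle low-Dlx cells, the S-phase low-Dlx cells were high in nearly the whole replication machinery and low in astrocyte genes. Of 12469 measured genes, 1633 were called higher (13.1%) and 2490 lower (20%), 33.1% in either direction, and the median log2 ratio over all genes was -0.22. The replication lists lay far from that background. High levels of cycle genes in this comparison follow in part from how both groups were chosen, with S sums of at least 4 and at most 1. Of 19 measured genes of origin licensing and firing, 17 were called higher and 0 lower (median log2 ratio 1.96). Of 28 fork genes 27 were called higher and 1 lower (1.94), and of 17 genes of chromatin replication 16 were called higher and 1 lower (2.30). Of 18 nucleotide synthesis genes 17 were called higher and 0 lower (2.06), and of 20 checkpoint and repair genes 19 were called higher and 0 lower (2.49).

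Among licensing factors, Cdc6, which loads the MCM helicase on origins, stood at 72.4 CPM (53.6 to 95.7) in the S-phase low-Dlx cells, against 0.828 CPM in few-cycle low-Dlx cells. Cdt1, its partner in loading, had 65.0 CPM (47.2 to 87.3) in the S-phase low-Dlx cells, against 1.74 CPM in few-cycle low-Dlx cells. Gmnn, the geminin that blocks renewed licensing, had 319 CPM in the S-phase low-Dlx cells, against 13.7 CPM in few-cycle low-Dlx cells. Loaders and the inhibitor of loading were thus high in the same pooled group. At the fork, Pcna, the sliding clamp, had 551 CPM (497 to 610) in the S-phase low-Dlx cells, against 58.7 CPM in few-cycle low-Dlx cells. Lig1, which joins Okazaki fragments, had 232 CPM in the S-phase low-Dlx cells, against 9.44 CPM in few-cycle low-Dlx cells. Pold4, a small subunit of DNA polymerase delta, was the fork gene called lower, at 29.5 CPM (18.05 to 45.6) in the S-phase low-Dlx cells, against 77.5 CPM in few-cycle low-Dlx cells. The clamp and the ligase were thus high and this small polymerase subunit low. In chromatin, Uhrf1, which brings DNA methyltransferase to replicated DNA, had 188 CPM (156 to 223) in the S-phase low-Dlx cells, against 5.09 CPM in few-cycle low-Dlx cells. Chaf1b, a subunit of the histone chaperone CAF-1, had 102 CPM in the S-phase low-Dlx cells, against 2.77 CPM in few-cycle low-Dlx cells. Tonsl was the gene of this list called lower, at 198 CPM in the S-phase low-Dlx cells, against 330 CPM in few-cycle low-Dlx cells. Chromatin factors followed the fork genes apart from Tonsl, a protein that reads newly replicated histones. In nucleotide synthesis, Tk1 (thymidine kinase) had 134 CPM in the S-phase low-Dlx cells, against 3.35 CPM in few-cycle low-Dlx cells.

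The machinery of the G1 to S step was high as well, with 15 of 21 measured cyclin and E2F genes called higher and 0 lower (median log2 ratio 1.52). Ccnd2, the D cyclin that drives G1 in many neural progenitors, had 4967 CPM (4800.4 to 5138) in the S-phase low-Dlx cells, against 449 CPM in few-cycle low-Dlx cells, and was seen in 242 of the 247 cells. Ccne2, the cyclin that opens S phase with CDK2, had 48.8 CPM (33.6 to 68.5) in the S-phase low-Dlx cells, against 1.12 CPM in few-cycle low-Dlx cells. Of 13 cell cycle inhibitors measured, 2 were called higher (Btg2 and Gadd45g) and 3 lower (Cdkn2a, Cdkn2b and Gadd45a), close to the 13.1% and 20% over all genes. Btg2, an antiproliferative gene of neurogenic divisions, had 230.5 CPM (196 to 269.6) in the S-phase low-Dlx cells, against 90.3 CPM in few-cycle low-Dlx cells. Cdkn2b, the CDK4 inhibitor p15, had 14.8 CPM (7.08 to 27.2) in the S-phase low-Dlx cells, against 93.6 CPM in few-cycle low-Dlx cells. Cdkn1a, the p21 inhibitor, was in neither class at 414 CPM in the S-phase low-Dlx cells, against 530.1 CPM in few-cycle low-Dlx cells.

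**Figure D2:**
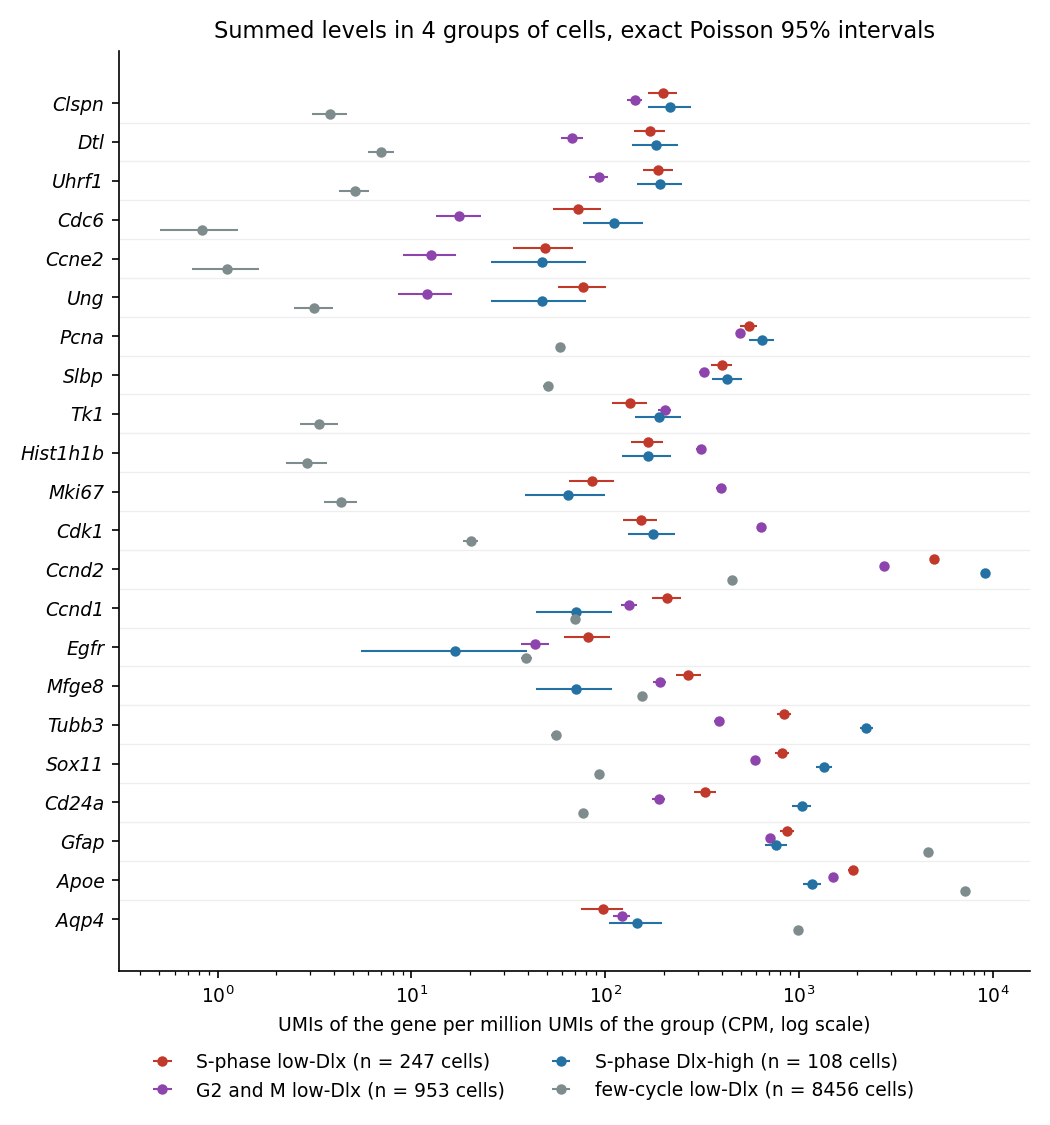
Levels of 22 genes in CPM (horizontal axis, logarithmic) in 4 groups of cells; points are sums over the cells of a group and bars are exact Poisson 95% intervals. Clspn, Dtl and Uhrf1 of the S-phase low-Dlx cells (red) lie beside those of the S-phase Dlx-high cells (blue), with the few-cycle cells (grey) at 3.81, 6.997 and 5.09 CPM.

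Against G2 and M low-Dlx cells, the S-phase low-Dlx cells were higher in some genes of the G1 to S boundary and lower in genes of G2 and M. Of 8296 measured genes 498 were called higher (6%) and 485 lower (5.85%), with a median log2 ratio of 0.02. Called were 5 of 19 licensing genes higher and 1 lower (median log2 ratio 0.37), and 6 of 28 fork genes higher and 1 lower (0.05). Of 17 chromatin genes 3 were called higher and 2 lower (-0.13), and of 18 nucleotide synthesis genes 2 higher and 1 lower (0.04). Of 23 checkpoint genes, 4 were called higher and 2 lower (0.28). Of 22 cyclin and E2F genes, 5 were called higher and 4 lower (0.15). Most replication genes were in neither class, as were most measured genes, of which 11.8% were called in either direction. In each of the 6 lists the share called higher lay above the 6% over all genes. The comparison cells had no S ceiling, and their median S sum was 4, against 5 in the S-phase low-Dlx cells. The groups also differ by rule in mitotic UMIs. How far the differences below follow from these conditions was not tested.

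Ung had the highest log2 ratio of these replication genes (2.27), ahead of Cdc6 (1.77) and Ccne2 (1.61). Ung, the uracil-DNA glycosylase, had 76.8 CPM (57.4 to 101) in the S-phase low-Dlx cells, against 11.97 CPM in G2 and M low-Dlx cells. By set it had 82.2 CPM and 58.5 CPM in sets 1 and 2 of the S-phase low-Dlx cells, against 14.4 CPM and 4.79 CPM in the same sets of G2 and M low-Dlx cells. Cdc6 had 72.4 CPM in the S-phase low-Dlx cells, against 17.7 CPM in G2 and M low-Dlx cells. The counting intervals of Ung and of Cdc6 did not overlap between the groups in either set. Ccne2 had 48.8 CPM in the S-phase low-Dlx cells, against 12.6 CPM in G2 and M low-Dlx cells. The origin loaders showed the same direction. Cdt1 had 65.0 CPM in the S-phase low-Dlx cells, against 25.7 CPM in G2 and M low-Dlx cells. Dtl had 169.9 CPM in the S-phase low-Dlx cells, against 67.6 CPM in G2 and M low-Dlx cells. Uhrf1, with 188 CPM in the S-phase low-Dlx cells against 92.5 CPM in G2 and M low-Dlx cells, showed the same direction. Some other S-phase genes did not separate the groups. Clspn was in neither class, at 199 CPM in the S-phase low-Dlx cells and 142 CPM in G2 and M low-Dlx cells. Pcna, at 551 CPM in the S-phase low-Dlx cells and 495 CPM in G2 and M low-Dlx cells, was also in neither class.

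Some genes of DNA replication and of S and G2 phase went the other way. Tk1 had 134 CPM (108 to 165) in the S-phase low-Dlx cells, against 203 CPM in G2 and M low-Dlx cells. Esco2, which acetylates cohesin on sister chromatids, had 72.4 CPM in the S-phase low-Dlx cells, against 177 CPM in G2 and M low-Dlx cells. Ccna2, the cyclin of S and G2 phase, had 25.1 CPM (14.6 to 40.2) in the S-phase low-Dlx cells, against 118 CPM in G2 and M low-Dlx cells. All 3 were called lower. Hist1h1b, a replication-dependent linker histone, had 165 CPM (136 to 199) in the S-phase low-Dlx cells, against 311 CPM in G2 and M low-Dlx cells. Of 12 histone cluster genes measured in this comparison, 7 were called lower, 1 higher and 4 neither. As background, messages of this class mostly lack the poly(A) tail that the kit captures. Of 27 G2 and M genes outside the rule, 27 were called lower (median log2 ratio -2.29), which follows from how the comparison cells were chosen. Mki67, the Ki-67 proliferation marker, had 85.7 CPM (65.1 to 111) in the S-phase low-Dlx cells, against 396 CPM in G2 and M low-Dlx cells. It stood at 4.35 CPM in few-cycle low-Dlx cells, and 25 of the same 27 genes were called higher in the S-phase low-Dlx cells than there. The few-cycle cells were likewise chosen for few S and mitotic UMIs. The mitotic condition allows 1 UMI, and 108 of the 247 S-phase low-Dlx cells had 1.

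**Figure D3:**
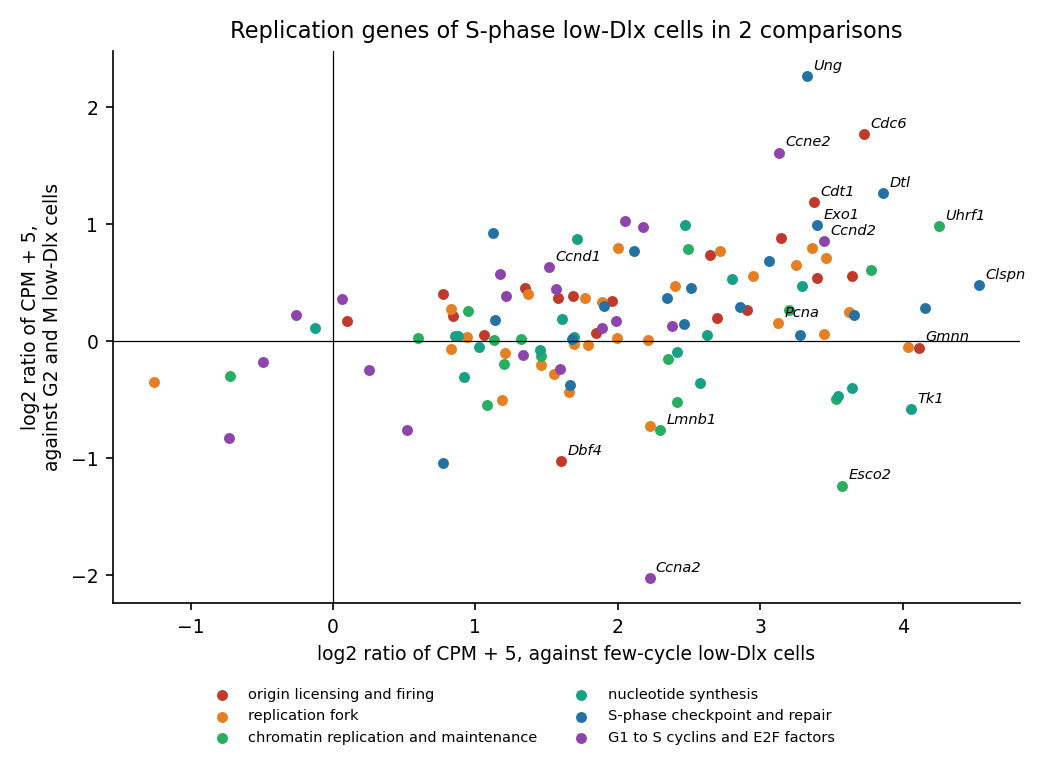
Log2 ratios (CPM + 5) of the measured genes of 6 replication lists in S-phase low-Dlx cells against few-cycle low-Dlx cells (horizontal axis) and against G2 and M low-Dlx cells (vertical axis); each point is a gene. Of 121 genes, 115 lie right of 0, while they spread around 0 on the vertical axis, with Ung, Cdc6 and Ccne2 at the top and Ccna2 at the bottom.

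Set against S-phase Dlx-high cells, which share the S and mitotic conditions, the S-phase low-Dlx cells were lower in most measured neuroblast genes. Most replication genes were in neither class, as over all genes. Of 3961 measured genes 386 were called higher (9.75%) and 289 lower (7.3%), with a median log2 ratio of 0.01. Only 108 cells made up the comparison group, and the call takes in the counting error of the S-phase low-Dlx cells alone, so single calls here are less firm than in the other comparisons. When the counting error of both groups had to leave out a ratio of 1, an alternative chosen after seeing the data, the total of 675 called genes became 319. No licensing gene of 14 measured was called higher (0) and 1 lower (median log2 ratio -0.36), and fork genes were called higher in 2 and lower in 2 of 22 (-0.19). Cdc6 was the licensing gene called lower, at 72.4 CPM in the S-phase low-Dlx cells, against 111 CPM in S-phase Dlx-high cells (76.7 to 157), and the intervals overlapped.

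Neuroblast genes outside the rule were called lower in 13 of 16 measured and higher in 0 (median log2 ratio -0.97). Tubb3, the neuronal beta-tubulin, had 834 CPM in set 1 and 839 CPM in set 2 of the S-phase low-Dlx cells, against 2163 CPM and 2387 CPM in the same sets of S-phase Dlx-high cells. Cd24a, a surface protein of neuroblasts, had 328 CPM (286 to 374) in the S-phase low-Dlx cells, against 1034 CPM in S-phase Dlx-high cells. Stmn2, a regulator of microtubules in growing neurites, had 60.6 CPM in the S-phase low-Dlx cells, against 287 CPM in S-phase Dlx-high cells. Low Dlx thus went with lower levels of neuroblast genes that the rule did not use. They were not absent, however. In few-cycle low-Dlx cells Tubb3 stood at 55.5 CPM, and against that group 11 of 19 neuroblast genes were called higher in the S-phase low-Dlx cells and 1 lower (median log2 ratio 0.91). Tubb3 was seen in 67.6% of the S-phase low-Dlx cells, against 97.2% of S-phase Dlx-high cells, 10.4% of few-cycle low-Dlx cells and 15.96% of collagen-rich cells. Thinned to 1500 UMIs, these shares were 53.4%, 88.7%, 6.43% and 3.80%. Sox11, a transcription factor of early neurons, had 818 CPM in the S-phase low-Dlx cells, against 1348 CPM in S-phase Dlx-high cells, and 92.9 CPM in few-cycle low-Dlx cells. Against G2 and M low-Dlx cells, 4 of 19 neuroblast genes were called higher and 0 lower. Tubb3 was among them at 835 CPM in the S-phase low-Dlx cells, against 387 CPM in G2 and M low-Dlx cells.

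Genes of activated stem cells and transit-amplifying cells were called higher in 5 and lower in 1 of 17 measured against S-phase Dlx-high cells (median log2 ratio 0.14, against 0.01 over all genes), with Egfr, Hes6 and Mfge8 among the higher ones. The other 11 were in neither class. Egfr, the receptor for the EGF withdrawn from these cultures, had 82.2 CPM and 78.0 CPM in sets 1 and 2 of the S-phase low-Dlx cells, against 18.4 CPM and 12.7 CPM in the same sets of S-phase Dlx-high cells. It was higher in each set of the S-phase low-Dlx cells than in either set of the S-phase Dlx-high cells, although the counting intervals in set 2 overlapped (40.3 to 136 CPM and 0.321 to 70.7 CPM). Mfge8, a secreted adaptor for engulfment that marks stem cell astrocytes of this zone, had 269 CPM (231 to 311) in the S-phase low-Dlx cells, against 70.9 CPM in S-phase Dlx-high cells. Insm1, a zinc-finger factor of neurogenic divisions, was the gene called lower, at 39.9 CPM (26.3 to 58.0) in the S-phase low-Dlx cells, against 74.3 CPM in S-phase Dlx-high cells. Egfr was also called higher than in G2 and M low-Dlx cells (43.7 CPM), where it was the only 1 of 21 such genes called, and than in few-cycle low-Dlx cells (39.2 CPM). Against few-cycle low-Dlx cells, 6 of 22 genes of this list were called higher and 4 lower (median log2 ratio -0.07). Over all genes of that comparison 13.1% were called higher and 20% lower (median -0.22). Sox2, a factor of neural stem cells and astrocytes, was in neither class against any of the 3 groups, at 179 CPM in the S-phase low-Dlx cells, against 183 CPM, 162 CPM and 257 CPM in G2 and M low-Dlx, S-phase Dlx-high and few-cycle low-Dlx cells. Nes, which encodes nestin, likewise stood at 47.3 CPM in the S-phase low-Dlx cells, against 41.3 CPM, 47.3 CPM and 52.2 CPM in these groups.

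D cyclins divided the same cells in opposite directions. Ccnd1 had 208 CPM (175 to 246) in the S-phase low-Dlx cells, against 70.9 CPM in S-phase Dlx-high cells, and was called higher. Ccnd2 had 4967 CPM in the S-phase low-Dlx cells, against 9140 CPM in S-phase Dlx-high cells, and was called lower. Both were called higher than in G2 and M low-Dlx cells, where Ccnd1 stood at 132 CPM and Ccnd2 at 2736 CPM. Btg2 followed Ccnd1, with 230.5 CPM in the S-phase low-Dlx cells against 74.3 CPM in S-phase Dlx-high cells. Cdkn1a, called higher, had 414 CPM in the S-phase low-Dlx cells, against 239.8 CPM in S-phase Dlx-high cells. The gene with the highest log2 ratio in this comparison, among those with at least 100 UMIs, was Prss23, which encodes a serine protease. It had 185 CPM in the S-phase low-Dlx cells, against 33.8 CPM in S-phase Dlx-high cells, 59.5 CPM in G2 and M low-Dlx cells and 92.4 CPM in few-cycle low-Dlx cells. Thrsp, a nuclear protein linked to lipogenesis, had 595 CPM in the S-phase low-Dlx cells, against 213 CPM in S-phase Dlx-high cells, 268 CPM in G2 and M low-Dlx cells and 314 CPM in few-cycle low-Dlx cells.

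**Figure D4:**
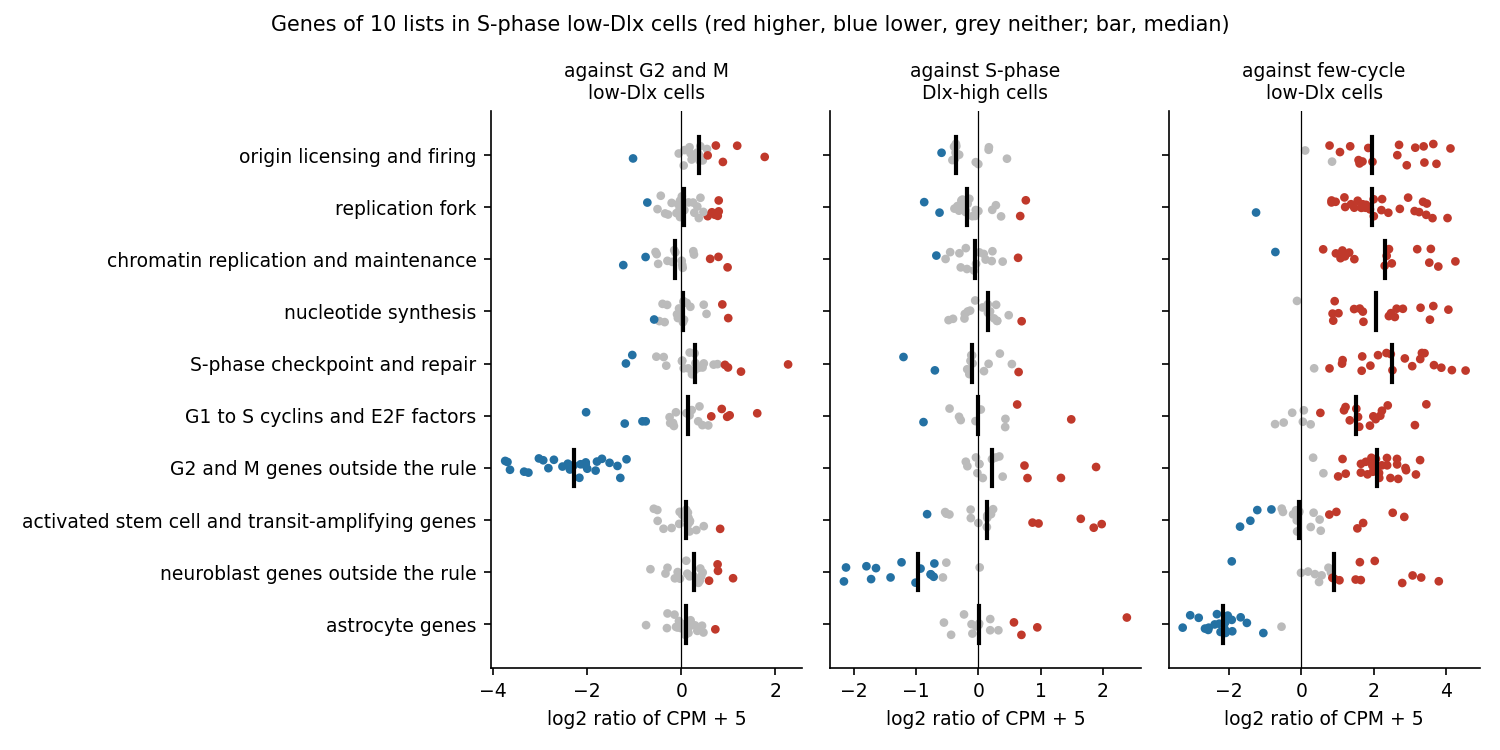
Log2 ratios (CPM + 5) of S-phase low-Dlx cells against 3 groups, for the measured genes of 10 lists; red points were called higher, blue lower and grey neither, and bars are medians. The neuroblast list lies at a median of 0.91 against few-cycle low-Dlx cells and -0.97 against S-phase Dlx-high cells, and the astrocyte list at -2.18 against few-cycle low-Dlx cells.

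Astrocyte genes were low in the S-phase low-Dlx cells relative to the few-cycle cells, which make up most of the culture and carry astrocyte genes. Of 20 measured, 19 were called lower and 0 higher (median log2 ratio -2.18). Gfap, the astrocyte intermediate filament, had 872 CPM (803 to 945) in the S-phase low-Dlx cells, against 4619 CPM in few-cycle low-Dlx cells. Aqp4, the astrocyte water channel, had 97.5 CPM (75.4 to 124) in the S-phase low-Dlx cells, against 994 CPM in few-cycle low-Dlx cells. Apoe, which carries lipids out of astrocytes, had 1895 CPM (1793 to 2002) in the S-phase low-Dlx cells, against 7223 CPM in few-cycle low-Dlx cells. Collagen-rich cells, which should lack these genes, served as background. Aqp4 was seen in 13.8% of S-phase low-Dlx cells and 21.8% of collagen-rich cells, and after thinning in 9.05% (5.69% to 13.5%) and 11.4% (7.21% to 16.9%) of the same groups, so its share was not above background. Gfap was seen in 68.0% (61.8% to 73.8%) of S-phase low-Dlx cells and 70.7% (63.7% to 77.1%) of collagen-rich cells before thinning. After thinning, the shares were 50.9% (44.2% to 57.5%) and 34.8% (27.9% to 42.1%) in the same order. The Gfap share thus lay above that of collagen-rich cells only after thinning. Apoe was seen after thinning in 72.8% (66.6% to 78.5%) of S-phase low-Dlx cells and 60.3% (52.9% to 67.4%) of collagen-rich cells, with intervals that overlapped. Against G2 and M low-Dlx cells 1 of 20 astrocyte genes was called higher and 0 lower (median log2 ratio 0.10, against 0.02 over all genes). Against S-phase Dlx-high cells 4 of 15 were called higher (Aldh1l1, Apoe, Ntsr2 and Slc1a2) and 0 lower, with a median of 0.01, the same as over all genes.

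The barcode sets differed in these astrocyte genes in every group. The summed astrocyte list held 7668 CPM in set 1 and 3952 CPM in set 2 of the S-phase low-Dlx cells, and 6700 CPM and 3656 CPM in the same sets of G2 and M low-Dlx cells. In S-phase Dlx-high cells it held 7073 CPM in set 1 and 3124 CPM in set 2, and in few-cycle low-Dlx cells 32408 CPM and 26489 CPM. Set 1 was the higher one in all 4 groups. Apoe alone had 2233 CPM in set 1 and 748 CPM in set 2 of the S-phase low-Dlx cells. Cells that reached 2.05% of their UMIs from the astrocyte list, the lower quartile of the few-cycle low-Dlx cells, numbered 10 of the 247 S-phase low-Dlx cells (4.05%). All 10 were in set 1, while the 0 of 53 in set 2 allows a share of up to 5.66%. Their median depth was 3483.5 UMIs, and 3 of the 10 were marked as doublets. Without these 10 cells, an alternative chosen after seeing the data, the list held 6073 CPM in set 1 of the S-phase low-Dlx cells. The part of free RNA or of the condition of a set in this difference was not tested.

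At the other end, 60 of the 247 S-phase low-Dlx cells (24.3%, 19.1% to 30.1%) reached the lower quartile of the S-phase Dlx-high cells in the share of UMIs from neuroblast genes (0.787%), and 2 of the 60 were marked as doublets. They numbered 51 in set 1 and 9 in set 2. No cell (0) met both cutoffs, and 177 cells (71.7%) met neither. Median depth was 2448 UMIs in the 60 cells and 2757 UMIs in the 177, and the Dlx ceiling is a raw UMI count. The S-phase low-Dlx cells thus span a range of neuroblast levels under a shared Dlx ceiling.

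Within the 247 cells, levels followed the S sum, which ranks the cells by the rule's own genes. Cells with an S sum of 4 to 5 (139 cells), 6 to 9 (91) and 10 or more (17) had median depths of 2548, 2765 and 2778 UMIs. The astrocyte list held 8811, 4511 and 4148 CPM along this order, and stood at 15617 CPM in the 331 cells with an S sum of 2 to 3, which the rule left out. Neuroblast genes ran the other way at 5189, 6318 and 6640 CPM, against 3715 CPM in the cells left out. For both lists the intervals at 6 to 9 and at 10 or more overlapped. The 10 cells rich in astrocyte UMIs described above had a median S sum of 4. Tubb3 had 671, 963 and 1376 CPM from the lowest to the highest S sum. Aqp4 had 152, 34.8 and 19.9 CPM in the same order, the last from 1 UMI (0.505 to 111 CPM). Aqp4 and Tubb3 thus ran in opposite directions from the lowest class to the middle one. Clspn did not follow the order throughout, with 157, 275 and 120 CPM (43.9 to 260 in the 17 cells of the highest class). Hist1h1b had 81.5 CPM at an S sum of 4 to 5 and 267 CPM at 6 to 9.

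**Figure D5:**
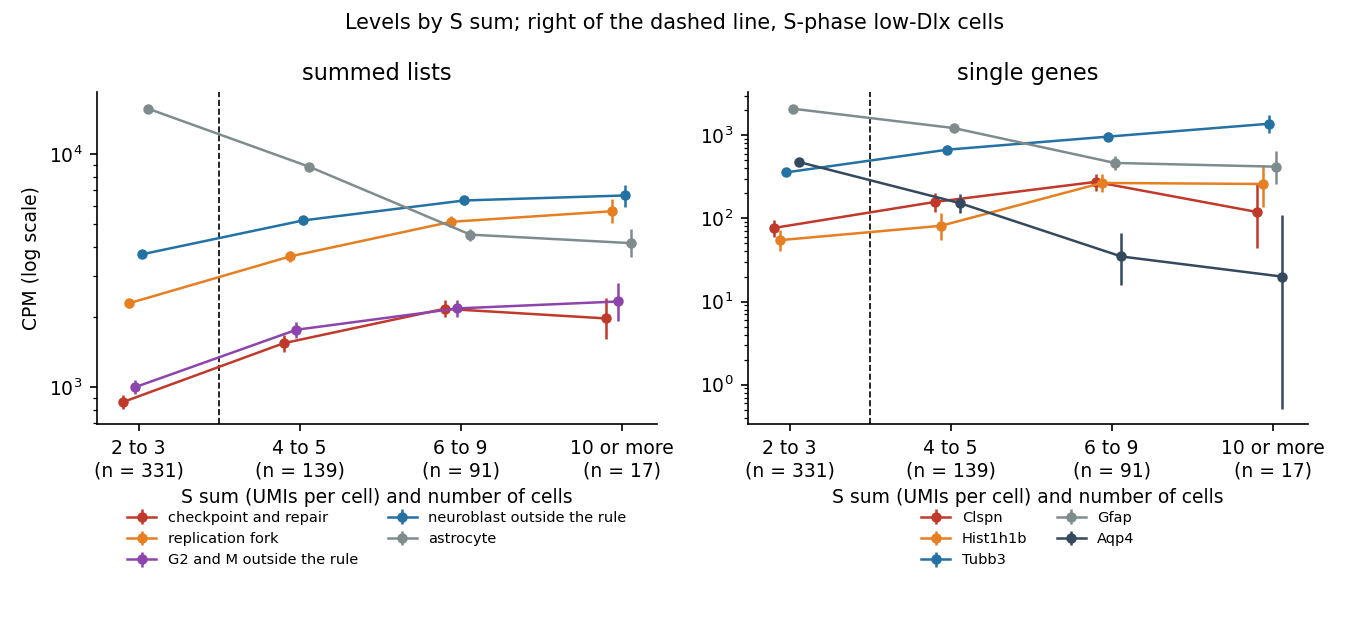
Levels in CPM (vertical axis, logarithmic) by S sum class (horizontal axis, with the number of cells), for 5 summed lists on the left and 5 genes on the right; bars are exact Poisson 95% intervals. Across the dashed line that marks the threshold of 4, the astrocyte list declines through 15617, 8811, 4511 and 4148 CPM while the neuroblast list increases through 3715, 5189, 6318 and 6640 CPM. For both lists the bars at 6 to 9 and at 10 or more overlap.

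At the S threshold itself, the 78 cells with an S sum of 4 and the 111 left out with a sum of 3 had 141 CPM and 136 CPM of Clspn, 228 CPM and 120.1 CPM of Dtl, and 199 CPM and 292 CPM of Aqp4. At the Dlx threshold, the 138 cells with a Dlx sum of 1 had 1050.4 CPM of Tubb3, and the 89 left out with a sum of 2 had 1187 CPM. At the mitotic threshold, the 108 cells with a sum of 1 had 114 CPM of Mki67, and the 108 left out with a sum of 2 had 109.5 CPM. At the oligodendrocyte threshold, Olig1, a factor of that lineage, had 11.8 CPM in the 247 cells and 345 CPM in the 18 left out with a sum of 1. The counting intervals did not overlap for Dtl at the S threshold and Olig1 at the oligodendrocyte threshold. They did not overlap either for Tubb3 at the S threshold, with 661 CPM (554 to 782) at a sum of 4 and 448 CPM (376 to 529) at a sum of 3, nor for Gfap at the mitotic threshold, with 681 CPM (590.4 to 781) at a sum of 1 and 937 CPM (835 to 1048) at a sum of 2. The same held for Ccnd2 at the S threshold, with 4271 CPM at a sum of 4 and 3613 CPM at a sum of 3, and for Tubb3 and Gfap at the oligodendrocyte threshold, where the cells left out had 345 CPM and 1255 CPM.

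The Dlx sum split the S-phase low-Dlx cells by neuroblast level as well. The 138 cells with a Dlx sum of 1, against the 109 with none, had 1050.4 CPM against 565 CPM of Tubb3. Ccnd2 had 5712 CPM in cells with a Dlx sum of 1, against 4036 CPM in cells with a sum of 0. Cdc6 had 95.7 CPM against 43.2 CPM in the same cells. All 3 were higher in cells with a Dlx UMI, although the counting intervals of Cdc6 overlapped (67.0 to 133 CPM and 23.0 to 73.9 CPM). Egfr ran the other way, with 55.8 CPM in cells with a Dlx sum of 1, against 113 CPM in cells with a sum of 0. Its intervals overlapped as well (34.6 to 85.4 CPM and 78.3 to 158 CPM). Mfge8 had 213 CPM against 339 CPM in the same cells.

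UMIs of other cell types were few, and those of the microglia and fibroblast lists sat mostly in single cells. Of 79 UMIs of the microglia list in the S-phase low-Dlx cells, 73 (92.4%) came from 1 cell of set 2, and of 76 UMIs of the fibroblast list 57 (75%) came from 1 other cell of set 2. The microglia list held 11.5 CPM in set 1 and 475 CPM in set 2 of the S-phase low-Dlx cells, and 3 of its 9 genes were at 0. Ependymal markers were spread more widely, with 89 UMIs over 67 cells and at most 3 in a cell, and endothelial markers gave 9 UMIs over 9 cells.

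Since the study concerns an oxysterol and the Hedgehog pathway, both gene sets were read in these cells. The counts that follow are against few-cycle low-Dlx cells, where 13.1% of all genes were called higher and 20% lower with a median log2 ratio of -0.22, and several lie near these shares. Hedgehog genes were sparse: of 13 measured against few-cycle low-Dlx cells, 2 were called higher and 1 lower (median log2 ratio -0.36), and 8 were measured against G2 and M low-Dlx cells. Gli1, the transcription factor that reads out the pathway, had 0 UMIs in the S-phase low-Dlx cells, which allows up to 4.43 CPM, and stood at 0.331 CPM in few-cycle low-Dlx cells. Gli2, its activator, had 4.43 CPM (0.914 to 12.95) in the S-phase low-Dlx cells and 5.18 CPM in few-cycle low-Dlx cells, which could not be told apart at this depth. Smo, the signal transducer of the pathway, was called lower at 11.8 CPM (5.10 to 23.3) in the S-phase low-Dlx cells, against 32.1 CPM in few-cycle low-Dlx cells. The Hedgehog genes called higher were Mycn, a proliferation factor and pathway target, at 22.2 CPM (12.4 to 36.6) in the S-phase low-Dlx cells, against 5.46 CPM in few-cycle low-Dlx cells, and Cdon, a co-receptor, at 11.8 CPM (5.10 to 23.3) against 4.22 CPM in the same groups. Of 22 cholesterol synthesis genes, 2 were called higher and 7 lower (median log2 ratio -0.43). The higher ones were Ebp, a sterol isomerase, at 39.9 CPM in the S-phase low-Dlx cells, against 21.5 CPM in few-cycle low-Dlx cells, and Acat2, an acetyl-CoA acetyltransferase, at 69.4 CPM against 34.3 CPM in the same groups. Among the lower ones, Dhcr7, the last reductase of cholesterol synthesis, had 2.95 CPM (0.358 to 10.7) in the S-phase low-Dlx cells, against 22.3 CPM in few-cycle low-Dlx cells, and Srebf2, the regulator of the pathway, had 13.3 CPM against 40.0 CPM in the same groups. Targets of p53 were called lower in 5 and higher in 0 of 13. Ccng1, a p53 target, had 68.0 CPM (49.8 to 90.6) in the S-phase low-Dlx cells, against 199.5 CPM in few-cycle low-Dlx cells. Of 15 genes of EGF and FGF signalling, 3 were called higher and 5 lower, and Fos, an early response gene, had 44.3 CPM in the S-phase low-Dlx cells, against 231 CPM in few-cycle low-Dlx cells. The 3 higher ones were Egfr, Etv1 and Etv5, and the 5 lower ones Fgfr1, Fgfr2, Fgfr3, Fos and Egr1. Oligodendrocyte genes outside the rule were called higher in 1 and lower in 5 of 13, where Sox8 was the higher one at 66.5 CPM in the S-phase low-Dlx cells, against 24.5 CPM in few-cycle low-Dlx cells. Of 12 stress and hypoxia genes, 0 were called higher and 6 lower (median log2 ratio -0.77).

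Against all other kept cells pooled, 1030 of 13048 measured genes were called higher (7.89%) and 1783 lower (13.7%), with a median log2 ratio of -0.16. Outside the rule, the highest log2 ratios among genes with at least 100 UMIs were those of Ung (76.8 CPM in the S-phase low-Dlx cells, against 9.09 CPM in the other cells), Cdc6 (72.4 CPM against 10.1 CPM), Dtl (169.9 CPM against 30.9 CPM) and Uhrf1 (188 CPM against 36.6 CPM). The lowest were led by Acta2, a smooth muscle actin, at 8.86 CPM (3.25 to 19.3) in the S-phase low-Dlx cells, against 143 CPM in the other cells, and by Drc1, a component of motile cilia, which had 0 UMIs in the S-phase low-Dlx cells and 35.7 CPM in the other cells, so that it was at least 8.06-fold lower. Pak3, a kinase of neuronal spines, and Mfng, a glycosyltransferase that modifies Notch receptors, were also among the 12 highest. Pak3 had 414 CPM in the S-phase low-Dlx cells, against 106 CPM in the other cells, and Mfng had 127 CPM against 31.6 CPM.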

How the data were processed

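The authors deposited 1 pooled matrix of UMI counts (28692 genes by 14685 barcodes, 41462326 UMIs), made with Cell Ranger 2.1.1 on mm10, per the submitters' processing notes. These are raw counts with no normalization; reads were not used. Replicates do not exist, so no test was run and no p-value is given. Barcode sets 1 and 2 held 10787 and 3898 barcodes. After filtering (1407 barcodes left out, 635 of them under 500 genes and 912 over 10% mitochondrial UMIs), counts were summed per group and divided by the group total. Gene positions come from GENCODE M21 (28339 of 28692 gene IDs matched). Python 3.11.15, numpy 2.4.6, scipy 1.17.1, pandas 2.3.3, scanpy 1.11.5 (Scrublet) and matplotlib 3.10.9 were used, and the steps were tested on simulated data. Doublets were marked and kept. The members and gene lists were chosen with earlier results of these data known. Named are the genes of the rule and the markers, per list the 4 with most UMIs and up to 4 called ones, and per comparison the 12 highest and 12 lowest called genes with at least 100 UMIs; other named genes were chosen after their values were seen. Alternatives varied the thresholds, filters, scaling, thinning, doublets and barcode set.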

Additional observations from a re-analysis of the deposited data

How the results depend on the processing

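No paired analysis was possible because each condition has 1 library and no barcode is tied to it. The share of 1.86% became 2.70% with an S sum of at least 3, 0.813% with at least 6, 0.821% with a Dlx sum of 0, 2.22% with at least 1000 genes and at most 5% mitochondrial UMIs, and 1.55% in set 2 alone. Genes called against S-phase Dlx-high cells (675) numbered 384 with an S sum of at least 6, 132 and 1540 with minimums of 100 and 10 UMIs, 326 in set 2 alone and 319 with the counting error of both groups. Against all other cells, 2813 became 1687 with a Dlx sum of 0 and 1368 in set 2 alone; against G2 and M low-Dlx cells, 983 became 559 with at least 100 UMIs and 485 in set 2 alone; against few-cycle low-Dlx cells, 4123 became 2134 in set 2 alone. The counting error of both groups, the removal of cells rich in microglia or fibroblast markers and a mitotic sum of 0 were chosen after seeing the data. These log2 ratios turned in direction. With an S sum of at least 3, the microglia median was 0.87 against G2 and M and 0.57 against few-cycle low-Dlx cells. With at least 6, Mycn was -0.50 and Sox8 -0.10 against all other cells and Dlx2 -0.064 against G2 and M low-Dlx cells. With a Dlx sum of 0, Hsd17b7 was -0.74 against G2 and M low-Dlx cells, Aurkb -0.41 against S-phase Dlx-high cells and the microglia median 0.30 against few-cycle low-Dlx cells. Thinned, Mycn was -0.083 against all other cells, and Dlx5 -0.0065 and Mbp -0.10 against G2 and M low-Dlx cells. In set 2 alone, the fibroblast median was 0.26 against all other, 1.48 against G2 and M and 0.25 against few-cycle low-Dlx cells, and the microglia median 4.76 against G2 and M and 0.96 against few-cycle low-Dlx cells. Without the rich cells, Vtn was 0.27 against all other and 0.28 against few-cycle low-Dlx cells, and Acta2 0.57 against G2 and M low-Dlx cells. With a mitotic sum of 0, the microglia median was 0.077 against G2 and M and 0.061 against few-cycle low-Dlx cells, Aurkb was -0.13 against S-phase Dlx-high cells, and against few-cycle low-Dlx cells the rule's mitotic median was -1.51, Cenpf -1.44, Tfdp2 -0.013, Top2a -1.71 and Ube2c -1.59. The causes were not tested. Of the other values, 15572 stayed the same and 1862 moved. Values of genes and lists were set against the counting interval, and counts of genes called higher or lower against a change of 1.5-fold. Set 2 held 53 of the cells, and the S-phase Dlx-high group 108, which limits what their counts can show.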
